A study of Mus musculus with 3 samples.

Results

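The Hedgehog pathway genes described here were Shh, Ihh, Dhh, Ptch1, Smo, Gli1, Gli2, Gli3 and Hhip, chosen by name. Isl1 occupancy was measured by chromatin immunoprecipitation and sequencing (ChIP-Seq), which reports DNA stretches pulled down with an antibody as peaks. Of 14082 distinct Isl1 peaks, 14 carried the symbol of a member, and they were spread over 7 of the 9 genes. Gli1 and Hhip had no assigned peak. The cells were cardiac progenitor cells (CPCs) obtained from the mouse embryonic stem cell line E14 Tg(Nkx2-5-EmGFP), in which green fluorescent protein reports Nkx2-5, and they were collected at day 5 of a directed differentiation with BMP4, Activin A, VEGF, bFGF and FGF10. There were 3 samples, namely 2 Isl1 ChIP replicates and 1 input taken without pulldown, and all came from this single line. The labels call the differentiated cells cardiac progenitors, and a peak list does not show expression, so that name could not be checked against markers.

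The deposited table combined both replicates and gave no height, score or read number. Depth and replicate error are therefore unknown, no test was possible on a member, and the absence of a peak does not show absence of Isl1. Each peak was assigned by the authors to the closest transcription start site (TSS), with a signed distance that is negative upstream.

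Hedgehog proteins are secreted ligands. In their absence the receptor Ptch1 holds the membrane protein Smo inactive and Gli proteins are cut into repressors, whereas ligand binding releases Smo and Gli2 and Gli3 act as activators. Gli1, Ptch1 and Hhip are themselves classic targets, so the pathway feeds back on its own transcription. In the early embryo Shh is made in pharyngeal endoderm and is needed by second heart field progenitors and for outflow tract septation, and Isl1 marks both of these tissues.

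The member peaks fell into a promoter or gene-body set and a far upstream set. The sequences of 6 peak stretches of the former set are shown with their CG dinucleotides in capitals. All are from mm9, on the plus strand, 5′ to 3′. Each is the 200 bp of the peak nearest its midpoint that held no annotated untranslated sequence and none of the 300 bases after the TSS of the named member.
Ihh first exon, coding part, chr1:74997589-74997788: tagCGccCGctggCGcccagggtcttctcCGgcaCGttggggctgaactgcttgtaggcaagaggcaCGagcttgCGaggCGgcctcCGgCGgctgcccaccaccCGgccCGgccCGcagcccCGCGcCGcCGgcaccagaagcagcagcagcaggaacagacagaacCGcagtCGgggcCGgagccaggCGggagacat
Ptch1, the 200 bp before the TSS, chr13:63667044-63667243: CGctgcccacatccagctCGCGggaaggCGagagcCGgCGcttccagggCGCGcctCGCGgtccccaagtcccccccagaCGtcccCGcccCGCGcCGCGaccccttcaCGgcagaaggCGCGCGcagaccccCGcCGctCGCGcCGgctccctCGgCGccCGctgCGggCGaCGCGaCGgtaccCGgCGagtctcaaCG
Gli2, the 200 bp before the TSS, chr1:120950197-120950396: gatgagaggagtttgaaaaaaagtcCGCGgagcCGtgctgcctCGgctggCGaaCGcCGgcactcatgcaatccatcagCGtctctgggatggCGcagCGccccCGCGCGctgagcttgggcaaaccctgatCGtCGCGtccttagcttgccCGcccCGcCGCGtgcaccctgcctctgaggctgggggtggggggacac
Gli3, the 200 bp before the TSS, chr13:15555356-15555555: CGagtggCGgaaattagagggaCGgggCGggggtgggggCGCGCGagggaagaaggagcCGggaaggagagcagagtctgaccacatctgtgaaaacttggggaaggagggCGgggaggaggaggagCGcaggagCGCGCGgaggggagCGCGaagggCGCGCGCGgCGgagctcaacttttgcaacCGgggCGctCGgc
Dhh last exon, coding part, chr15:98724569-98724768: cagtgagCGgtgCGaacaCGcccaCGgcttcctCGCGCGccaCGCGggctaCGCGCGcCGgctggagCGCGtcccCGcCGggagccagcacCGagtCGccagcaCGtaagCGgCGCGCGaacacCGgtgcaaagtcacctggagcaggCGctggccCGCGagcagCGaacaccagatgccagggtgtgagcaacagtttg
Shh last exon, coding part, chr5:28784638-28784837: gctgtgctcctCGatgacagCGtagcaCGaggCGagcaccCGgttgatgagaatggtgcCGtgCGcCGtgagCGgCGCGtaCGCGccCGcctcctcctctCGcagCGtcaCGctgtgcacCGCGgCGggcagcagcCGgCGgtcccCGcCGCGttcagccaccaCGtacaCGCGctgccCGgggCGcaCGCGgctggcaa

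These stretches of 200 bp held 20 CG dinucleotides at Gli2, 21 at Ihh, 23 at Gli3, 29 at Dhh, 32 at Shh and 36 at Ptch1. Stretches not printed held 21 at Smo, 18 at the second Ptch1 peak and 14 at the Gli2 intron. The stretches at Ihh, Ptch1, Gli2, Gli3 and Smo lie off the peak centre, and the others are the centres themselves. The central 200 bp of these off-centre cases held 27 at Ihh, 26 at Ptch1, 19 at Gli2, 21 at Gli3 and 21 at Smo. For comparison with the centres, the central 200 bp had a median of 25 in all peaks within 1 kb of a TSS and 14 in all peaks. The last printed sequence lies in Shh but its peak was deposited under another gene name, as described with the ligands.

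From the second set 3 sequences are shown because they resemble each other although they lie at different loci. Capitals mark the longest stretch that each shares with its closest counterpart here. They form a family in which similar sequence occurs upstream of Shh and of Gli3.
Shh, 18380 bp upstream, chr5:28811922-28812121: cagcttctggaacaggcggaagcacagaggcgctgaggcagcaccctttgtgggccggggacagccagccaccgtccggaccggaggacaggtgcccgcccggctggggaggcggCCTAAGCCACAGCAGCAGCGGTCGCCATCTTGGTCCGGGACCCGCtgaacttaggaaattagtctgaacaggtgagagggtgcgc
Shh, 137432 bp upstream, chr5:28930974-28931173: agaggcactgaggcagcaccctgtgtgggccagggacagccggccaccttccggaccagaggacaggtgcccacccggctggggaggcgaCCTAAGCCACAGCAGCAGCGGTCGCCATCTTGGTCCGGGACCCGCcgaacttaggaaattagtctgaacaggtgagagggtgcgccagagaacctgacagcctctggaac
Gli3, 226822 bp upstream, chr13:15328635-15328834: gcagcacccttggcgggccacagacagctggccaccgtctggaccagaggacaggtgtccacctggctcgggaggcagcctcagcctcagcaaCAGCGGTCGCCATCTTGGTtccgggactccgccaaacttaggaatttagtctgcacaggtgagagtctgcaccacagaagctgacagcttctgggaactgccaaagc

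Counted by gene, 7 of 9 members (77.8%) had an assigned peak, where 39.1% of 21031 protein-coding genes did. For 5 members (55.6%) a peak lay closer than 1 kb to the start site, against 24.2% of the protein-coding genes. Requiring single-copy sequence under the peak left 6 members (66.7%), against 28.7%. Single-copy means that the 31-mers in the central 200 bp had a median of fewer than 2 occurrences in the genome. All members are compared here with the whole gene list as a description, since they were chosen by name with results of these data known, and nothing particular to the pathway is read from these shares.

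**Figure D1:**
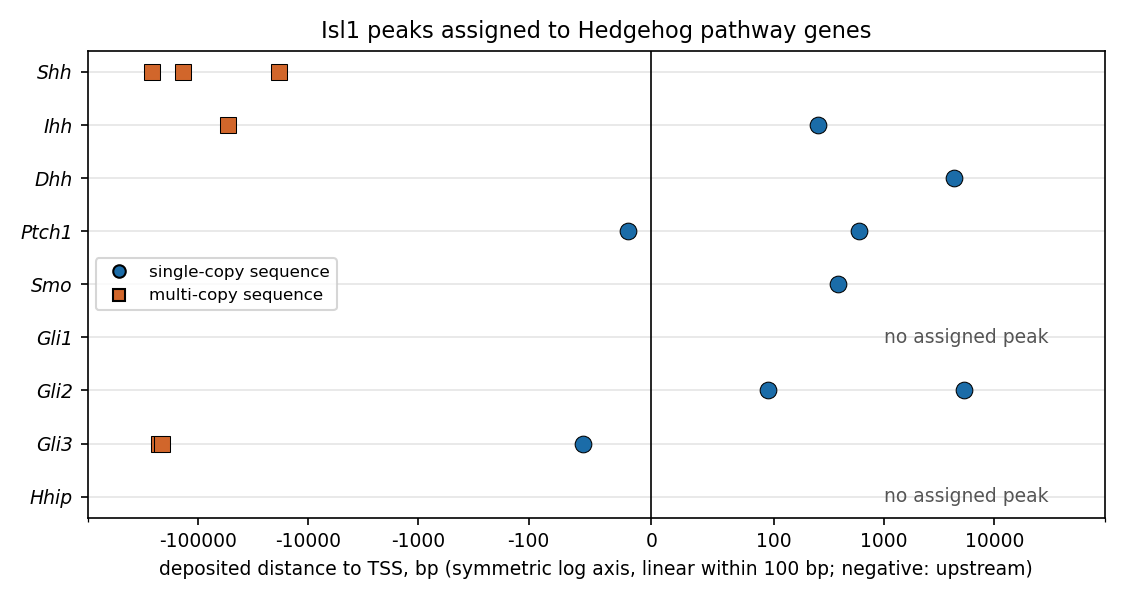
Distance of each assigned peak from the TSS for the 9 members, on a symmetric log axis in bp, with circles for single-copy and squares for multi-copy sequence. The 8 single-copy peaks lie within 5351 bp of a TSS, and the 6 multi-copy peaks lie 18380 bp or more upstream.

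Among the ligands, Ihh, known for its role in cartilage and in visceral endoderm, had a peak of 1761 bp over its first exon. This peak spanned chr1:74997112-74998873, and its midpoint was 254 bp downstream of the TSS in an untranslated part of the exon. It was the widest of the member peaks, and 93.8% of all peaks were narrower. The central 200 bp had a GC content of 76.0% and 27 CG dinucleotides, the highest GC content among the members.

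The second Ihh peak was of another kind. It lay at chr1:75051001-75051632, 53070 bp upstream, in an intron of Nhej1, a DNA repair gene. By the protein-coding GENCODE annotation the closest TSS was that of Nhej1, 35830 bp from the peak. The centre had a GC content of 42.0% with 0 CG dinucleotides, and its 31-mers occurred a median of 1235 times in the genome. With 75-mers the median was 1.

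Dhh, the ligand of Sertoli and Schwann cells, had a single peak of 694 bp at chr15:98724321-98725015. Its midpoint was in the coding part of the last of 3 exons, 4303 bp downstream of the TSS, with a GC content of 71.0% and 29 CG dinucleotides at single-copy sequence. No peak overlapped the 1 kb around the Dhh TSS.

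Shh, the ligand of notochord, floor plate and pharyngeal endoderm, had 3 assigned peaks, none close to its promoter. They lay at chr5:28811455-28812587, chr5:28930501-28931646 and chr5:29055831-29056353, which is 18380, 137432 and 262451 bp upstream. All 3 were within an intron of the noncoding transcript 9530036O11Rik. For the peaks at 137432 and 262451 bp the closest protein-coding GENCODE TSS was that of Gm10290, 66013 and 191032 bp away. The 31-mers of the 3 peaks had a median of 1421, 1919 and 18204 occurrences in the genome. No peak assigned to Shh was thus at single-copy sequence.

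A single-copy peak did lie inside Shh. It spanned chr5:28784252-28785223 (971 bp), with its midpoint in the coding part of the last of 3 exons, 8904 bp downstream of the Shh TSS. The deposited table placed it 8787 bp upstream of 9530036O11Rik, whose TSS by that table is slightly closer than that of Shh. It therefore carries that symbol and is not counted among the 14. By GENCODE, however, 9530036O11Rik starts at chr5:28784814 on the plus strand, which lies within this peak and within its printed stretch. The centre of the peak had a GC content of 73.0%, 32 CG dinucleotides and no TAAT. TAAT, the core of homeodomain sites, occurred 13 times in the 1 kb around the midpoint, counted on both strands with overlaps. Over all 14082 peaks, 72.9% of such windows held it, with 40389 matches in all. A further peak at chr5:28773182-28774288, beyond the 3′ end of Shh, was assigned to the same transcript and was multi-copy, with a median of 810 occurrences.

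Shh and Dhh thus each had a single-copy peak in the last exon, and Ihh in the first. The long-range limb enhancer of Shh is known to lie in an intron of Lmbr1. By midpoint Lmbr1 held 1 peak, which was assigned to Lmbr1 itself and was at multi-copy sequence.

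**Figure D2:**
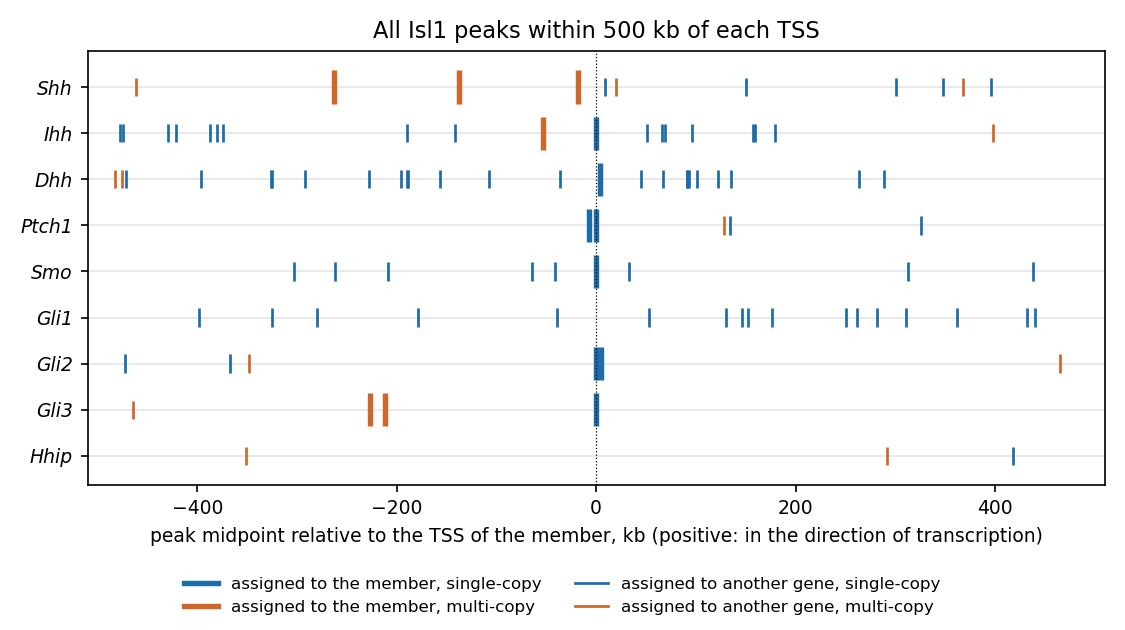
Position of every Isl1 peak within 500 kb of each member's TSS, in kb, with thick bars for peaks assigned to the member and colour for copy class. Shh has 11 peaks in this window, 5 of them single-copy, and Hhip has 3 with none closer than 292153 bp.

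The receptor Ptch1 had 2 peaks, at chr13:63666375-63667749 and chr13:63673586-63674773. The former was centred 19 bp upstream and the latter 589 bp downstream of another start site of Ptch1. They were 1374 and 1187 bp wide, wider than 82.4% and 71.3% of all peaks. GC content at the centres was 74.0% and 67.5%, with 26 and 18 CG dinucleotides. Both were at single-copy sequence, and no other peak lay within 100 kb of the Ptch1 TSS.

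Smo, the membrane protein that Ptch1 restrains, had 1 peak of 1464 bp at chr6:29685143-29686607. It was centred 378 bp downstream of the TSS in the first of 12 exons, in untranslated sequence, with a GC content of 71.5% and 21 CG dinucleotides. It was wider than 85.9% of all peaks.

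Of the Gli transcription factors, Gli2 and Gli3 had peaks at their start sites and Gli1 did not. The Gli2 peak at chr1:120949680-120950523 was 843 bp wide and centred 95 bp downstream of the TSS in the first exon. A further Gli2 peak of 671 bp lay at chr1:120944510-120945181, in an intron 5351 bp downstream. Both were at single-copy sequence, with a GC content of 70.5% and 68.0%. Gli2 encodes the main activator of the pathway.

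Gli3, which encodes its main repressor, had a peak of 1707 bp at chr13:15554647-15556354, centred 56 bp upstream of the TSS. Only the Ihh promoter peak was wider among the members. Its centre had a GC content of 66.0% and 21 CG dinucleotides. The other Gli3 peaks lay at chr13:15328411-15329057 and chr13:15343720-15344756, 226822 and 211318 bp upstream in intergenic sequence. Their 31-mers had a median of 7 and 968.5 occurrences. With 75-mers the former had a median of 1 and the latter of 227.

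Gli1, whose transcript is the usual readout of Hedgehog signalling, had no peak closer than 10 kb to its TSS or in its body. The closest peak lay 39240 bp upstream at chr10:126817248-126818522 and was assigned to R3hdm2. It was 1 of 17 peaks within 500 kb of Gli1, so the region itself was not empty of peaks. Hhip, which encodes a membrane protein that binds and sequesters the ligands, had no peak within 100 kb. The closest, at chr8:82289327-82290177, was 292153 bp away in an intron of Anapc10 and at multi-copy sequence.

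Promoter composition was then set beside the peaks for every gene, independently of the deposited assignment. Over 22207 protein-coding genes, 24.3% of the 1 kb windows centred on the TSS of the longest transcript were overlapped by a peak. In the 6746 windows with a GC content of at least 60% the share was 64.8%, and in the others it was 6.65%. Of the members, 7 had such a GC-rich window and 5 of them were overlapped (71.4%), whereas neither of the remaining 2 was.

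The windows with a peak had GC contents of 62.1% at Gli2, 70.2% at Smo, 70.6% at Gli3, 71.3% at Ptch1 and 72.3% at Ihh. Those without a peak had 53.1% at Shh, 59.1% at Dhh, 60.6% at Gli1 and 65.2% at Hhip. The Hhip window was thus richer in GC than the Gli2 window and had no peak, while the other 4 windows with a peak exceeded every window without. CG dinucleotides numbered 65, 80, 120, 116 and 101 in the windows of Gli2, Smo, Gli3, Ptch1 and Ihh, and 39, 41, 49 and 58 in those of Shh, Dhh, Gli1 and Hhip, so on this count the groups did not overlap. Over all genes, 59.3% of the windows with at least 60 CG dinucleotides were overlapped by a peak and 5.54% of those with fewer, a limit chosen after the members' values were seen. Whether base composition has a part in which members had a peak was not tested.

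**Figure D3:**
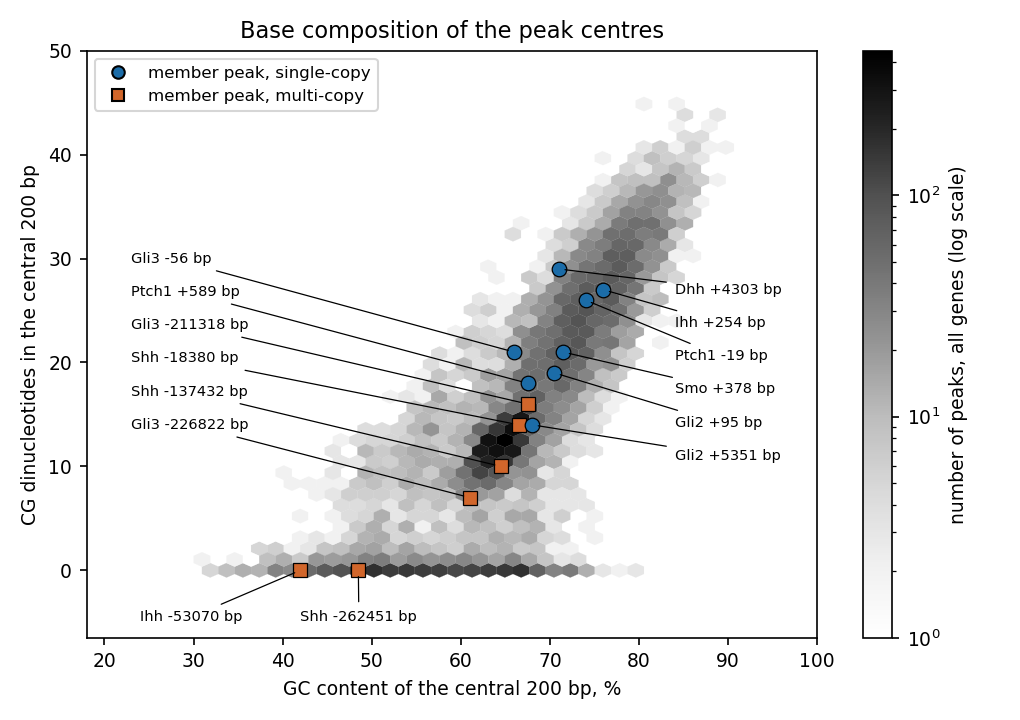
GC content in percent against the number of CG dinucleotides in the central 200 bp of each peak, with all 14082 peaks as grey bins and the 14 member peaks named by gene and distance. The 8 single-copy member peaks have GC contents from 66.0% to 76.0%, and the upstream Ihh peak and the farthest Shh peak hold 0 CG dinucleotides.

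The same measures were taken at the peaks themselves. The 8 single-copy member peaks had a median GC content of 70.75% at their centres (range 66.0% to 76.0%) and from 14 to 29 CG dinucleotides. The 6 multi-copy member peaks had a median of 62.75% (range 42.0% to 67.5%) and from 0 to 16. In all peaks together the median was 66.5%, with quartiles at 62.5% and 73.5%. Within 1 kb of a TSS the peaks of all genes had a median of 74.0%, with quartiles at 70.0% and 77.5%. The 6 member peaks at such distances had a median of 71.0%, which is lower. In 13 of the 14 member peaks the centre was richer in GC than the stretches of 200 bp placed 2 kb to either side, as in 94.1% of all peaks. The exception was the farthest Shh peak, with 48.5% at the centre and 44.5% and 52.5% beside it.

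Copy class and distance coincided among the members. Of the 6 member peaks within 1 kb of a TSS, 0 were multi-copy, as were 0 of the 2 between 1 and 10 kb and 6 of the 6 beyond 10 kb. In all peaks the multi-copy shares of these classes were 2.57%, 38.4% and 81.2%. The members' far upstream peaks therefore had the copy class of most peaks at such distances in this list. By 75-mers, however, the upstream Ihh peak and the Gli3 peak at 226822 bp had a median of 1 occurrence.

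The family shared by Shh and Gli3 was examined by local alignment of the central 200 bp. The Shh peaks 18380 and 137432 bp upstream aligned over 175 bp with 94.9% identity on the same strand, and shared an unbroken stretch of 45 bp. The Gli3 peak 226822 bp upstream aligned with the latter over 187 bp with 85.6% identity, and the longest stretch in common was 19 bp. No repeat annotation was used here, so the family is left unnamed.

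Many other peaks shared a part of these sequences. At least 1 31-mer of the centre was shared with 1532 other peak centres for the Shh peak at 18380 bp and with 1547 for that at 137432 bp, the former being 10.9% of all other peaks. Beyond 10 kb from a TSS lay 95.2% and 95.3% of these. Of all 6543 multi-copy peaks, 5839 lay that far from a TSS. The numbers of other centres with a shared 31-mer were 839 for the farthest Shh peak and 587 for the upstream Ihh peak. They were 457 for the Gli3 peak at 211318 bp and 74 for that at 226822 bp. How reads were placed among the copies was not analysed here.

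Short strings were sought on both strands to see which letters the centres hold. The LIM-homeodomain type strings were CTAATG and CTAATT, both of which contain the homeodomain core TAAT and so overlap it. They occurred in the central 200 bp of 0 of the 8 single-copy member peaks and 3 of the 6 multi-copy ones, against 13.3% of all peak centres and 1.03% of those within 1 kb of a TSS. TAAT itself was in the same numbers of member centres, 0 of 8 and 3 of 6. It was in 19.4% of all centres and 5.87% of those within 1 kb of a TSS. In windows of 1 kb the strings CTAATG or CTAATT were in 3 of 8 and 5 of 6. The shares there were 34.3% of all peaks and 15.3% of those within 1 kb of a TSS. No share was taken over all multi-copy peaks or all peaks beyond 10 kb, so the counts in multi-copy member peaks have no like comparison.

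The 3 centres with a LIM-homeodomain type string were the Shh peaks at 18380 and 137432 bp and the upstream Ihh peak, all at multi-copy sequence. These Shh centres aligned with 94.9% identity, so their matches are not separate occurrences. In both printed Shh sequences the string reads aattag, which is CTAATT on the other strand, shortly after the capitals. The string also occurs in the printed stretch before the Gli3 TSS, which lies outside the centre of that peak.

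The GLI consensus GACCACCCA, the site of the pathway's own transcription factors, was in 0 of 14 member windows of 1 kb, against 0.731% of all peaks. The shorter core CCACCCA, which the consensus contains, was in 3 of 14, namely at the Gli2 intron, the second Ptch1 start site and the Ihh promoter, against 19.8% of all peaks. The GATA type strings AGATAA or AGATAG, and likewise TGATAA or TGATAG, were in 0 of 14 centres, against 4.22% of all peaks, and in 8 of 14 windows of 1 kb, against 47.4%. The GC box GGGCGG was in 5 of the 8 single-copy centres and in 65.7% of all centres within 1 kb of a TSS. A match is a description of the letters and says nothing about which factor was bound.

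**Figure D4:**
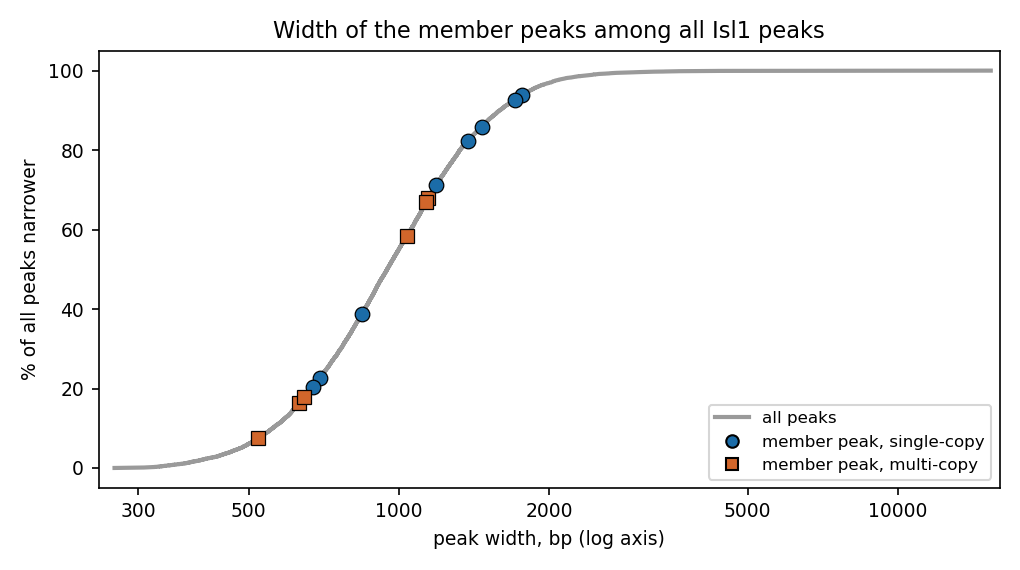
Width of the 14 member peaks on the cumulative curve of all peaks, with width in bp on a log axis and the percentage of narrower peaks on the other. The start site peaks of Ihh, Gli3 and Smo and the Ptch1 peak centred 19 bp upstream are each wider than over 80% of all peaks, and the narrowest member peak is the farthest Shh peak at 522 bp.

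Member peaks had a median width of 1084 bp (range 522 to 1761 bp), where all peaks had 947 bp with quartiles at 717 and 1243 bp. Within 1 kb of a TSS the 6 member peaks had a median of 1419 bp, against 1050 bp for the 5416 peaks of all genes at such distances. The 4 widest were the start site peaks of Ihh, Gli3 and Smo and the Ptch1 peak centred 19 bp upstream, with 1761, 1707, 1464 and 1374 bp. The start site of Gli2 had the narrowest peak of this class, with 843 bp, and 38.6% of all peaks were narrower. Far upstream the 6 member peaks had a median of 841 bp, against 882 bp for all peaks at such distances. Width is no measure of binding strength, and these differences were not tested.

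The rest of the pathway was described with a list of 46 other genes, written from general knowledge and grouped by role. Like the members, this list was chosen with earlier results of these data known. Of these, 30 (65.2%) had an assigned peak, against the 39.1% of all protein-coding genes given above. Within 1 kb of the TSS the number was 25 (54.3%), against 24.2%. The list is a fixed choice and no random sample of genes, so no interval is given, and it was not tested. All 30 genes had at least 1 single-copy peak, and of their 42 peaks 32 were single-copy.

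For release of the ligand, 4 of 6 genes were assigned a peak, each closer than 1 kb to the start site. These were Hhat, which attaches palmitate to the ligand, at 376 bp, and Scube1, Scube2 and Scube3, secreted carriers of the ligand, at 191, -66 and -290 bp. Disp1 and Disp2, of the Dispatched family that exports the ligand, had none. In the ligand-receiving group, 4 of 6 genes had a peak. Among them were Lrp2, an endocytic receptor, at 258 bp, and Gas1, a co-receptor, at 488 bp with a width of 2872 bp. The Cdon peak was deposited 30467 bp upstream but its midpoint was in an untranslated part of Cdon by the GENCODE annotation. Boc, the co-receptor related to Cdon, and Gpc3 had none.

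Among 22 genes of signal transduction and Gli processing, 14 had a peak, and 11 of them within 1 kb. Sufu, which holds Gli proteins in the cytoplasm, had a peak of 631 bp at 115 bp. The genes of protein kinase A, casein kinase and glycogen synthase kinase, which phosphorylate Gli proteins, had peaks close to the start site, with Prkaca at -37 bp, Prkacb at 28 bp, Csnk1a1 at -208 bp and Gsk3b at -429 bp, and so had the regulatory subunit gene Prkar1a at 350 bp. The ubiquitin ligase genes Btrc and Cul3 had peaks at 122 and 192 bp, and Spop, the adaptor of Cul3, had none. Adrbk1, the kinase that phosphorylates Smo, had a peak at 253 bp, Dyrk2 at 115 bp with a width of 1904 bp, and Mgrn1 at 282 bp.

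Kif7 and Gpr161 had peaks farther away. That of Kif7, the ciliary kinesin, was 7425 bp upstream in a coding exon of Plin1. The closest peak of Gpr161, a ciliary receptor that restrains the pathway, was 13723 bp upstream in intergenic sequence. Evc, Evc2, Stk36, Arrb2, Ulk3, Efcab7 and Tulp3 had none.

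Among 12 textbook target genes, 8 had a peak and 7 of them within 1 kb. The forkhead genes Foxf1, Foxf2, Foxc2, Foxl1 and Foxa2 all had a peak near the start site, at -279, 591, 913, 735 and -331 bp, with widths of 2697, 1892, 2240, 1291 and 677 bp. Nkx6-1, a ventral neural tube gene, had one of 1886 bp at 511 bp, and Mycn, a growth regulator, one of 689 bp at 100 bp. The closest Osr1 peak was 52466 bp downstream with a median of 2631.5 occurrences, and 1 of its 5 peaks was single-copy. Nkx2-2, Ccnd1, Ccnd2 and Bcl2 had none, so this list too held both kinds.

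**Figure D5:**
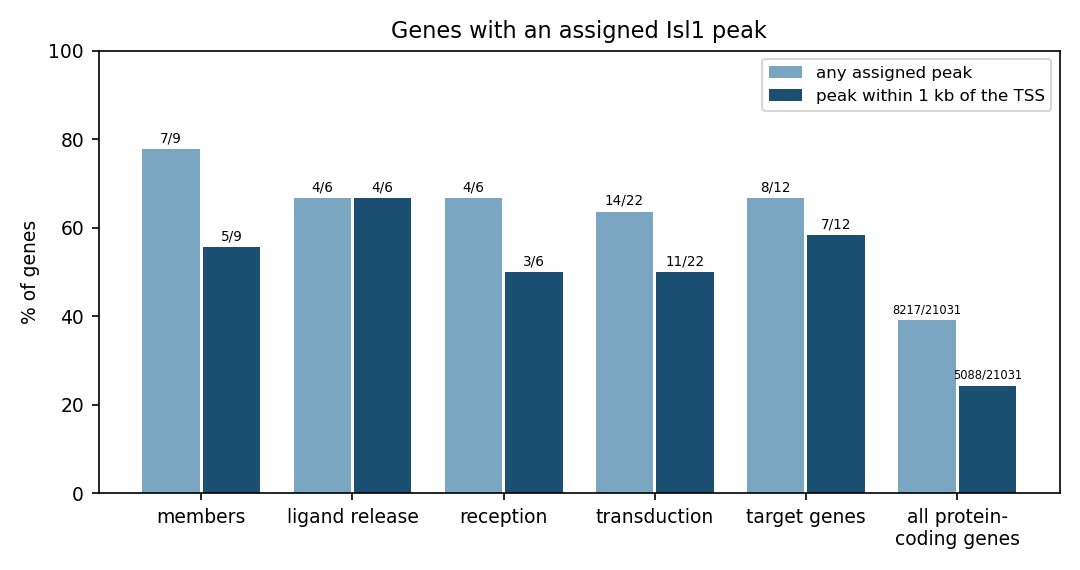
Percentage of genes with an assigned Isl1 peak, at any distance and within 1 kb of the TSS, for the 9 members, the 4 role lists of other pathway genes and all protein-coding genes, with counts above the bars. Each list lies above the 39.1% and 24.2% of all protein-coding genes, a difference that was not tested.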

How the data were processed

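Isl1 ChIP-Seq in CPCs comprised 2 ChIP replicates and 1 input, grouped by their titles. The authors mapped reads to mm9 (bowtie2), marked duplicates for removal (Picard 1.136), called peaks on a fixed shift (MACS14), dropped blacklisted regions, intersected the replicates (bedtools 2.15) and annotated the closest TSS (HOMER). Tool versions are those of the submitters' processing notes. The authors deposited 1 table of positions and distances in bp, with no score, fold or count, so depth per sample is unknown here.

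Identical lines were counted once (14165 lines, 14082 peaks). Peaks with a member's SYMBOL were kept. Midpoints were compared with GENCODE vM1 on NCBIM37, the mm9 sequence, and 0 peaks passed a chromosome end. The start base (0 or 1) of the table is not stated, so starts are uncertain by 1 bp. Names and the protein-coding class (genes with an NM accession) came from a RefSeq table of GRCm38.p6, which matched 9305 of 9313 names. Copies were exact counts of 31-mers on both strands, tested on simulated sequence. Scripts used Python 3.11.15, numba 0.67.0, scipy 1.17.1 and Biopython 1.88 (local alignment, match 1, mismatch -1, gap open -3, extension -1).

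All 9 members are named, as are other pathway genes with a peak at their peak closest to the TSS. Some genes counted in the lists, and some sequences, are not reported here. Members and lists were chosen with earlier results of these data known, and the strings, the GC and CG limits, the alignments and the promoter windows after the peaks had been seen. No test was run.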

Additional observations from a re-analysis of the deposited data

How the results depend on the processing

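No paired analysis was possible because both replicates were combined into 1 table and no test compares samples, and for the same reason no replicate could be left out. Of 36 alternative values of 7 results, 25 were within 1.5 times of the reported count or equal to the reported median, and 11 moved. Restricting to single-copy peaks and restricting to peaks within 10 kb of a TSS each left 8 peaks of the members, with a median width of 1280.5 bp and a median GC content of 70.75%, since the same 6 upstream peaks drop out. In both cases 6 members had a peak, without Shh. Assigning midpoints to the closest protein-coding TSS of GENCODE gave 13 peaks with a median of 1106 bp and 69.5% GC, because 3 upstream peaks went to other genes and 2 peaks at Shh were added. Keeping identical lines gave a median width of 1132 bp. GC content over the whole peak had a median of 64.4%. With at least 2 peaks required, 8 of the 46 other pathway genes and 5 of the 9 members qualified, as did 11.1% of all protein-coding genes. With 75-mers 10 member peaks were single-copy, in place of 8. A minimum width of 500 bp changed none of the 7 results. With depth unknown, no limit of detection can be given for Gli1 or Hhip.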

Other observations

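The Gli3 start site peak was the only member peak with a repeated line in the deposited table. It had 2 identical lines, and 78 of the 14082 peaks had more than 1. Its width of 1707 bp exceeded that of 92.7% of all peaks.

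The forkhead genes Foxf1, Foxc2 and Foxl1 are neighbours, and their peaks closest to the start sites lay at chr8:123606659-123609356, chr8:123639864-123642104 and chr8:123651675-123652966. All 3 were at single-copy sequence, with GC contents of 76.5%, 63.5% and 69.5% at the centres. The widest peak among those closest to a start site in the 46 other pathway genes was the one at Gas1, with 2872 bp, followed by that at Foxf1 with 2697 bp.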
